A study of Mus musculus with 12 samples.

Results

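The matrix metalloproteinases are zinc enzymes that cut collagens, elastin, laminins and other proteins outside the cell, and the TIMPs (tissue inhibitors of metalloproteinases) block them. Described here are 8 enzyme genes (Mmp2, Mmp3, Mmp8, Mmp9, Mmp10, Mmp12, Mmp13 and Mmp14) and 2 inhibitor genes (Timp1 and Timp2), taken by symbol from a table of 55415 entries. All 10 were found, each as 1 entry. Their RNA was measured by bulk RNA sequencing of tumours grown in mice from CT26, a mouse colon carcinoma line. There were 4 groups of 3 libraries each: mice given Complex 1 and radiation together (the combination), mice given radiation alone, mice given Complex 1 alone, and untreated control mice. The series title calls the compound a platinum complex activated by X-rays. The labels give no dose, time, strain or age, do not say whether a sequenced tumour lay in the irradiated field, and do not state that replicates are tumours of different animals. The p-values therefore measure the spread between these samples, which may be technical.

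Most metalloproteinases are secreted as inactive zymogens that other proteinases activate, and their activity is also set by the amount of inhibitor, so RNA levels are not enzyme activities. In tumours and inflamed tissue, different cells supply different members. Neutrophils store MMP-8 and MMP-9 in granules, macrophages are the classical source of MMP-12, and fibroblasts and other stromal cells are known for MMP-2, MMP-3, MMP-13 and MMP-14. Many of the secreted enzymes are induced by interleukin 1, tumour necrosis factor and oncostatin M, in several cases through AP-1 transcription factors.

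Library totals ran from 15.6 to 19.1 M (mega counts). Levels are the deposited FPKM (counts scaled by exonic length and library total), and a count of 3 in a member corresponded to between 0.0217 FPKM (Mmp12, lowest library) and 0.217 FPKM (Timp1, highest library). Such floors cover counting error only. Each change is a log2 fold change with its SE, estimated from the counts by the quasi-likelihood test of edgeR, with p-values adjusted by the Benjamini-Hochberg method over the 13668 genes with at least 1 FPKM in at least 3 of 12 libraries. A gene with an adjusted p under 0.05 is said to have passed. Mmp10 lay below that filter, so 9 members were tested. Mmp8 reached 1 FPKM in 5 libraries, all from combination or Complex 1 tumours, so counts of members that passed are partly fixed by its entry. Control replicate 2 stood apart from the other 11 libraries, with 0.02 FPKM of Xist and 28 counts of Y-linked genes, whereas the others held 9.20 to 14.16 FPKM and no more than 1 Y-linked count. For the members, values without it are given where it ended a call. Calls of other genes were not examined without it. Of 8 epithelial markers, 5 (Epcam, Krt7, Krt8, Krt19 and Vil1) lay below 1 FPKM in every library. Krt20 was high, at 114.64 to 148.24 FPKM in control and 66.56 to 145.54 FPKM in Complex 1 libraries.

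Several of the genes lie in a cluster, and the promoters of its members are shown because neighbouring genes in it changed in different directions. The cluster holds 10 metalloproteinase genes within 427 kb of chromosome 9 (7272514 to 7699586, mm39), among them Mmp13, Mmp12, Mmp3, Mmp10 and Mmp8 in that order. The 250 bases before the annotated start of Mmp8, Mmp3, Mmp10 and Mmp13 follow, 5′ to 3′, from RefSeq (GRCm38.p6, + strand). Capitals mark the AP-1 motif TGANTCA, searched on both strands, and the TATA motif TATAAA, searched on the gene's strand. No overlap of these motifs occurs in the 4 sequences.
Mmp8, chr9:7558179-7558428: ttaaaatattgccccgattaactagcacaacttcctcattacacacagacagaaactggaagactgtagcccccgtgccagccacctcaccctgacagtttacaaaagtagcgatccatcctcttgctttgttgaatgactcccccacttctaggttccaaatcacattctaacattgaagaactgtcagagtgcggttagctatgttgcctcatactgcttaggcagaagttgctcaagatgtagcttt
Mmp3, chr9:7445572-7445821: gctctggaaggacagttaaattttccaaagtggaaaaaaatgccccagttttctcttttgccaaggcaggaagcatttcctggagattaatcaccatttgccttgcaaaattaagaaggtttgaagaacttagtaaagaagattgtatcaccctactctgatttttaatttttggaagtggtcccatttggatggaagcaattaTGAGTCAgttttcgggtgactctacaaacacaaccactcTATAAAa
Mmp10, chr9:7502092-7502341: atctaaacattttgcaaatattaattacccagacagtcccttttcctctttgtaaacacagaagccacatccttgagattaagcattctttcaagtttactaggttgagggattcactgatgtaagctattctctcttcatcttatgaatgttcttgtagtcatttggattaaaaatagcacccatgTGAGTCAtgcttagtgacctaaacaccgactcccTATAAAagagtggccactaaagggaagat
Mmp13, chr9:7272264-7272513: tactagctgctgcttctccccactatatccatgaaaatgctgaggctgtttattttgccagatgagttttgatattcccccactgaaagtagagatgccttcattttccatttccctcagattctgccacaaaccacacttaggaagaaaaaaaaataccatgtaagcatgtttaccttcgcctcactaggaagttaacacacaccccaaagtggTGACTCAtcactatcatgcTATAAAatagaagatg
Mmp3, Mmp10 and Mmp13 each hold 1 AP-1 and 1 TATA motif. Counted back from the start site, the AP-1 motif spans -46 to -40 in Mmp3, -63 to -57 in Mmp10 and -35 to -29 in Mmp13. The window of Mmp8 holds neither. Among all 32851 promoter windows of the same length, 6.75% hold the AP-1 motif and 7.59% the TATA motif. A match describes these letters and is not a measured binding site. Windows were found for 8 of the 10 members (not Mmp2 and Mmp9). Mmp12 has an annotated pair of starts, the second with an AP-1 motif at -44 to -38, and Mmp14, Timp1 and Timp2 hold neither motif.

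**Figure D1:**
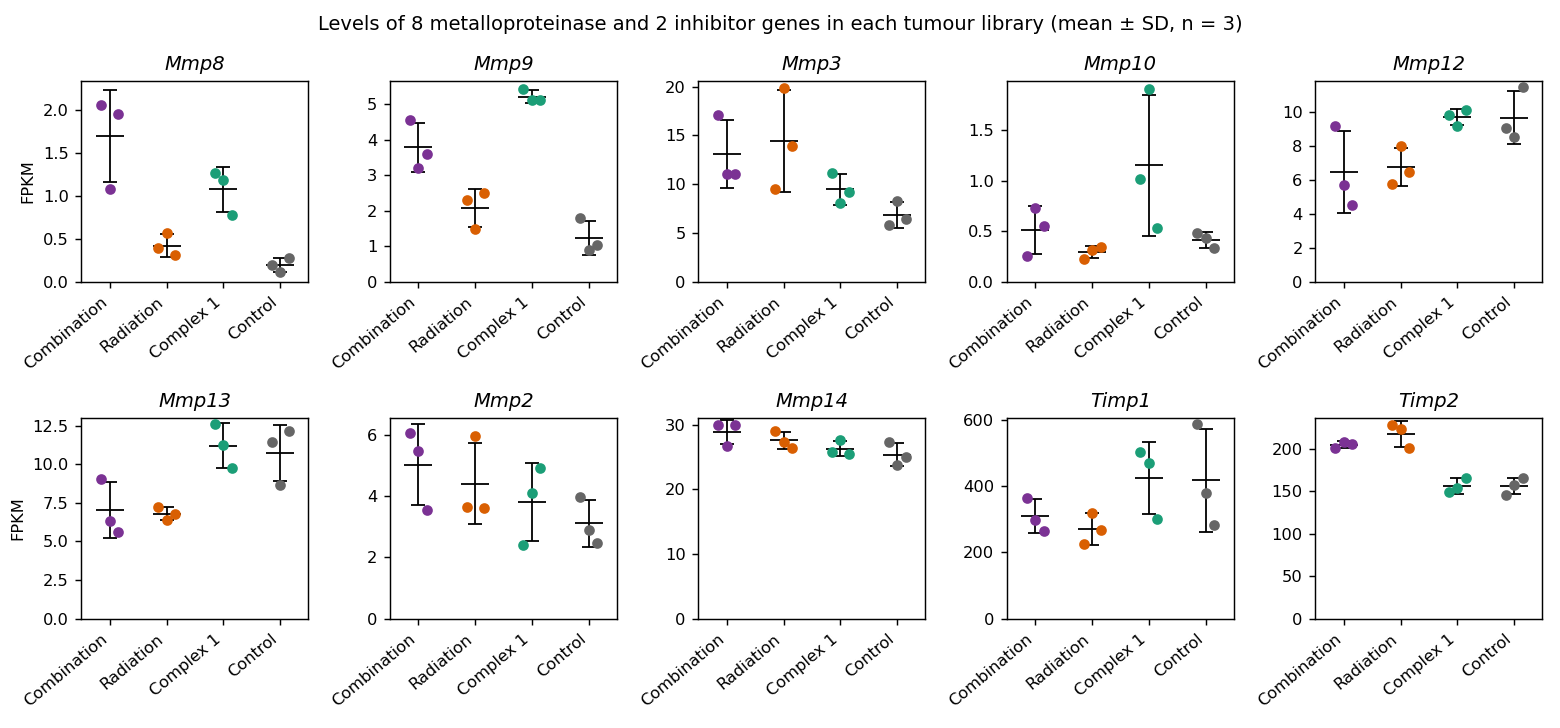
FPKM (vertical axes, linear from 0) of the 10 genes in each of 12 libraries, by group; points are libraries, and black marks give the mean ± SD (n = 3). Mmp9 lies at 5.11 to 5.42 FPKM in Complex 1 libraries, above every other library, and Timp2 is at 200.62 FPKM or more in all 6 libraries from irradiated mice and at 166.25 FPKM or less in the other 6.

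The neutrophil enzymes rose with the compound. Mmp8 encodes neutrophil collagenase, which cuts fibrillar collagens (ENSMUSG00000005800, chromosome 9, 7558457 to 7568486, + strand, mm39). Mmp8 stood at 2.06, 1.08 and 1.95 FPKM in combination, 0.39, 0.57 and 0.31 in radiation, 1.27, 1.19 and 0.78 in Complex 1, and 0.20, 0.11 and 0.28 in control libraries. All 6 libraries with the compound lay above all 6 without it, and every radiation library lay above every control library. These are low levels, from 5 to 89 counts. Since Mmp8 entered the test only through the groups where it is high, its changes and adjusted p-values are taken as a description. Mmp8 rose 8.31-fold in combination over control tumours (log2 3.06 ± 0.38, adjusted p = 0.000211) and 5.38-fold in Complex 1 over control tumours (2.43 ± 0.39, adjusted p = 0.0143). The change in radiation tumours was 1.08 ± 0.43 (adjusted p = 0.118) and did not pass. Combination exceeded radiation by 1.98 ± 0.34 (adjusted p = 0.0177). Against Complex 1, Mmp8 was lower in radiation tumours (-1.35 ± 0.35, adjusted p = 0.030), whereas combination had a difference of 0.63 ± 0.31 (adjusted p = 0.221). The call of Complex 1 against control was lost without control replicate 2 (adjusted p = 0.0953) or Complex 1 replicate 2 (0.0612). The combination against radiation call was lost without radiation replicate 1 (0.107) or 3 (0.0792) or combination replicate 1 (0.0847) or 3 (0.0605). That of radiation against Complex 1 was lost under 6 of 15 alternatives. Among them were leaving out Complex 1 replicate 1 or 2 or radiation replicate 1 or 3 (0.0912 to 0.109).

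Mmp9 encodes gelatinase B, which cuts denatured collagen and type IV collagen of basement membranes (ENSMUSG00000017737, chromosome 2, 164782700 to 164797770, + strand, mm39). Its levels were 4.55, 3.21 and 3.60 FPKM in combination, 2.30, 1.48 and 2.49 in radiation, 5.42, 5.11 and 5.11 in Complex 1, and 1.79, 0.90 and 1.04 in control libraries. Complex 1 libraries were the highest, combination libraries came next without overlap, and the ranges of radiation and control libraries overlapped. Mmp9 rose 4.12-fold with Complex 1 over control (log2 2.04 ± 0.25, adjusted p = 0.00493) and 2.94-fold with the combination over control (1.56 ± 0.25, adjusted p = 0.000918). With radiation alone the change was 0.72 ± 0.25 (adjusted p = 0.0781). This change did not pass, but did under 5 of 15 alternatives, among them DESeq2 (adjusted p = 0.0267), edgeR without a filter on low values (0.00156), and edgeR without control replicate 1 (0.0196) or radiation replicate 2 (0.0293). In the fit without a filter each gene's own spread had no weight, so its small adjusted p adds little. Radiation tumours had less Mmp9 than Complex 1 tumours (-1.32 ± 0.23, adjusted p = 0.00624). The difference of combination from Complex 1 was -0.48 ± 0.23 (adjusted p = 0.201) and that of combination from radiation 0.84 ± 0.24 (adjusted p = 0.195 in edgeR and 0.0299 in DESeq2). The interaction, which asks whether the effect of radiation differed with and without the compound, was -1.20 ± 0.34 (unadjusted p = 0.00354, adjusted p = 0.997).

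Neutrophil markers moved with these genes, and their part in the results was not tested. In bulk tissue, more cells of a type and more RNA per cell cannot be told apart. The summed level of 14 neutrophil markers (S100a8, S100a9, Csf3r, Cxcr2 and others) was 310 to 524 FPKM in combination, 34.4 to 76.5 in radiation, 151 to 253 in Complex 1, and 30.1 to 39.3 in control libraries. Of 13 tested markers, 13 rose in combination, 2 in radiation and 6 in Complex 1 tumours, each against control, and none fell. The shares of all tested genes that rose were 11.9%, 7.39% and 0.717%. Cxcr2 (at most 0.32 FPKM in control and 0.40 in radiation libraries) and the marker Retnlg (0.10 and 0.54) entered the test only through groups with the compound. These counts are therefore partly fixed by the filter. Cxcr2, the neutrophil chemokine receptor gene, was at 3.23 ± 1.42 FPKM in combination and 1.13 ± 0.185 FPKM in Complex 1 libraries (SD, n = 3 each), a rise of 1.49 ± 0.33 (adjusted p = 0.0133). Csf3r, the G-CSF receptor gene, rose by 1.01 ± 0.18 (adjusted p = 0.00425) in the same comparison. Only 3 of the 13 tested markers passed there, all upward, where 4.73% of all tested genes rose. The marker sum was thus higher in every combination library than in every Complex 1 library, and Mmp9 was lower in every one. Ly6g lay below 1 FPKM in all 12 libraries. So did 7 of 12 neutrophil granule genes: Ltf, Camp, Ngp, Cd177, Elane, Mpo and Prtn3, most of which are known to be transcribed by immature neutrophils in bone marrow. Of the other granule genes, Lcn2, the lipocalin 2 gene, stood at 64.8 ± 12.6 FPKM in combination and 20.6 ± 4.75 FPKM in Complex 1 libraries (SD, n = 3 each; log2 1.63 ± 0.35, adjusted p = 0.0123). It was the only 1 of 4 tested granule genes that passed between these groups.

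**Figure D2:**
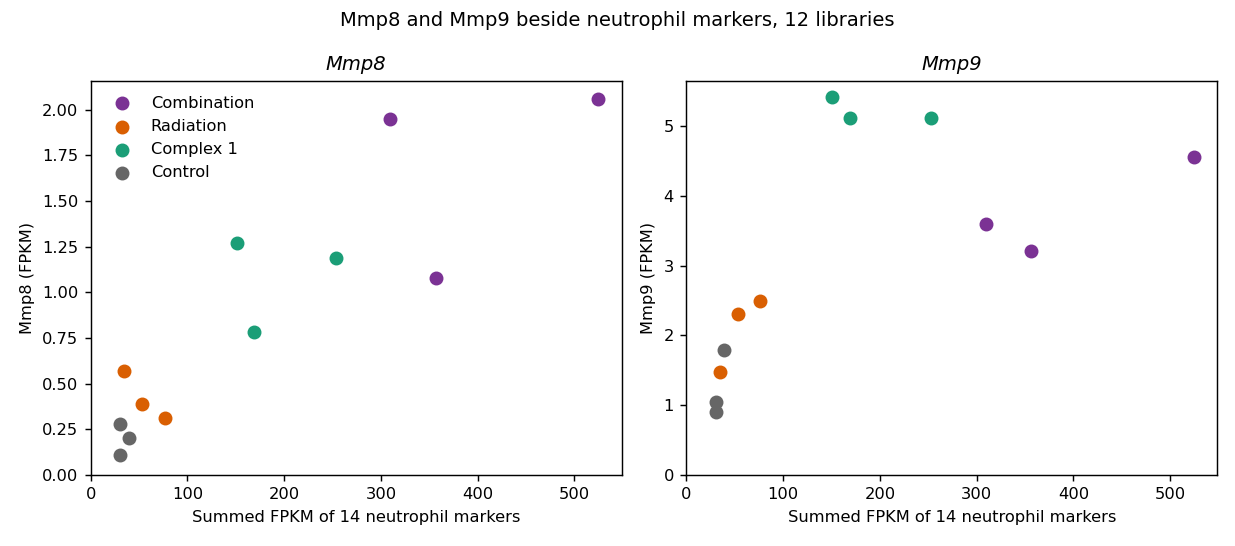
Mmp8 (left) and Mmp9 (right) in FPKM against the summed FPKM of 14 neutrophil markers, both axes linear from 0, with 1 point per library coloured by group. Combination libraries have the highest marker sums (310 to 524 FPKM), and Complex 1 libraries, at 151 to 253 FPKM, have the highest Mmp9.

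Genes most like the neutrophil enzymes differed between them. Likeness is Pearson's r of log2(CPM + 1) over 12 libraries, which share the group differences, and it is given as a description. For Mmp8, the 3 most alike tested genes were the pseudogene Rpl27-ps3 (0.94), the predicted gene Gm12715 (0.93) and Osm, which encodes the cytokine oncostatin M (0.93). With group means removed, Mmp8 and Osm had r = 0.55 and the other 2 had 0.22 and 0.090. For Mmp9 they were Itgam (0.92), the CD11b integrin gene of myeloid cells, Gm7488 (0.92) and Acp5 (0.90), the tartrate-resistant acid phosphatase gene of osteoclasts and macrophages. Their values with group means removed were 0.47, 0.33 and 0.79. Mmp8 and Mmp9 had r = 0.80 with each other and 0.095 with group means removed.

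Together the neutrophil enzymes made up a small share of the 8 enzyme genes' summed FPKM. That share was 7.12% to 9.13% in combination, 2.93% to 4.64% in radiation, 8.95% to 9.63% in Complex 1, and 1.89% to 3.31% in control libraries. Every library with the compound was above every library without it. The summed level of the other 6 enzymes overlapped between all groups but one pair. It was 55.25 to 71.6 FPKM in combination, 55.3 to 67.8 in radiation, 59.9 to 62.8 in Complex 1, and 52.5 to 58.1 in control libraries, and Complex 1 and control did not overlap. The ratio of both gelatinases, Mmp9 over Mmp2, was 0.584 to 1.02 in combination, 0.248 to 0.686 in radiation, 1.04 to 2.26 in Complex 1, and 0.310 to 0.450 in control libraries. The ratio of both collagenases, Mmp8 over Mmp13, was 0.171 to 0.346 in combination, 0.0457 to 0.0891 in radiation, 0.0799 to 0.106 in Complex 1, and 0.0127 to 0.0231 in control libraries. Radiation and control did not overlap in that ratio, which rests on low counts of Mmp8.

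The stromelysins cut many matrix proteins and activate other metalloproteinase zymogens. Mmp3 encodes stromelysin 1 (ENSMUSG00000043613, chromosome 9, 7445822 to 7455975, + strand, mm39). Mmp3 measured 17.07, 11.05 and 11.10 FPKM in combination, 9.48, 19.86 and 13.91 in radiation, 11.18, 8.11 and 9.16 in Complex 1, and 5.82, 8.31 and 6.43 in control libraries. Both groups given radiation lay above control without overlap, and radiation replicate 2 was the highest library. Mmp3 rose with radiation by 1.04 ± 0.25 (2.06-fold, adjusted p = 0.0183) and with the combination by 0.88 ± 0.25 (1.84-fold, adjusted p = 0.0249), each over control. Complex 1 alone gave 0.44 ± 0.26 (adjusted p = 0.520). Between treatments, Mmp3 differed by -0.16 ± 0.24 for combination against radiation (adjusted p = 0.862), 0.44 ± 0.25 for combination against Complex 1 (0.297) and 0.60 ± 0.25 for radiation against Complex 1 (0.147). The radiation call was lost without control replicate 1 (adjusted p = 0.0745) or radiation replicate 2 (0.0586), and the combination call without control replicate 1 (0.0908) or 3 (0.0683) or combination replicate 1 (0.115). Among the genes most like Mmp3 were A930005H10Rik (r = 0.94) and Fcrlb (0.91).

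Mmp10 encodes stromelysin 2 (ENSMUSG00000047562, chromosome 9, 7502353 to 7510241, + strand, mm39) and is the next cluster member read from the same strand as Mmp3 after Mmp1a. It had 0.26, 0.73 and 0.55 FPKM in combination, 0.23, 0.31 and 0.34 in radiation, 1.02, 1.90 and 0.53 in Complex 1, and 0.48, 0.43 and 0.33 in control libraries, from 7 to 51 counts. Complex 1 libraries lay above all control and all radiation libraries. Mmp10 reached 0.5 FPKM in 5 libraries, all from Complex 1 or combination tumours, so a filter that admits it does so through the groups where it is high. With the filter at 0.5 FPKM in 3 libraries (15804 genes, a setting chosen after seeing the data), its log2 changes were therefore taken as a description. They were 0.27 ± 0.48 for combination, -0.52 ± 0.52 for radiation and 1.44 ± 0.45 for Complex 1, each against control. Between treatments they were 0.79 ± 0.51 for combination against radiation, -1.17 ± 0.44 for combination against Complex 1 and -1.96 ± 0.47 for radiation against Complex 1. Of the 31-base sequences of its transcripts, 11.9% also occur in Mmp3, and 14.6% of those of Mmp3 occur in Mmp10 or 2 predicted genes. Mmp3 had 192 to 678 counts per library, so these shares do not bound the error of the lower Mmp10 counts. How reads from shared sequence were assigned was not measured.

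Mmp13 and Mmp12, which neighbour each other at the start of the cluster, had lower levels in irradiated tumours. Mmp13 encodes collagenase 3, a main interstitial collagenase of the mouse (ENSMUSG00000050578, chromosome 9, 7272514 to 7283331, + strand, mm39). Mmp13 amounted to 9.07, 6.33 and 5.63 FPKM in combination, 7.22, 6.40 and 6.78 in radiation, 12.62, 11.27 and 9.76 in Complex 1, and 11.43, 8.67 and 12.13 in control libraries. All radiation libraries lay below all control and Complex 1 libraries, and combination replicate 1 lay within the control range. Mmp13 fell with radiation by 0.69 ± 0.17 on the log2 scale (adjusted p = 0.0199) and with the combination by 0.67 ± 0.17 (adjusted p = 0.0141), each against control. Complex 1 alone gave 0.037 ± 0.17 (adjusted p = 0.954). Against Complex 1 the changes were -0.70 ± 0.17 for the combination (adjusted p = 0.0206) and -0.72 ± 0.17 for radiation (adjusted p = 0.0205), and both passed. Combination differed from radiation by 0.021 ± 0.17 (adjusted p = 0.982). The fall with radiation was not called without control replicate 1 or 3 or radiation replicate 2 or 3 (adjusted p = 0.0527 to 0.0695) or by limma with either pseudocount (0.0501 and 0.0581), and that with the combination without combination replicate 2 (0.0588) or 3 (0.0638). Against Complex 1, leaving out Complex 1 replicate 1 or 2, any radiation library or combination replicate 2 or 3 ended the call it entered (adjusted p = 0.0533 to 0.0889).

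Mmp12 encodes macrophage elastase (ENSMUSG00000049723, chromosome 9, 7344381 to 7369499, + strand, mm39). There were 9.16, 5.70 and 4.55 FPKM of Mmp12 in combination, 5.77, 7.97 and 6.47 in radiation, 9.84, 9.16 and 10.12 in Complex 1, and 9.05, 8.51 and 11.45 in control libraries. Radiation libraries lay below control without overlap, whereas combination replicate 1 lay within the control range. Mmp12 fell with the combination by 0.63 ± 0.21 against control (adjusted p = 0.0435), a call lost under 11 of 15 alternatives, among them leaving out any control library or combination replicate 2 or 3 (adjusted p = 0.058 to 0.159). With radiation the change was -0.55 ± 0.20 (adjusted p = 0.0945) and with Complex 1 it was -0.020 ± 0.20 (adjusted p = 0.981). Between treatments Mmp12 differed by -0.080 ± 0.21 for combination against radiation (adjusted p = 0.930), -0.61 ± 0.21 for combination against Complex 1 (0.0788) and -0.53 ± 0.20 for radiation against Complex 1 (0.124). Without combination replicate 1, that of combination against Complex 1 passed (0.0102). Macrophage markers ran the other way. The summed level of 14 of them was 2500 to 2628 FPKM in combination, 2430 to 2627 in radiation, 1602 to 1750 in Complex 1, and 1152 to 1425 in control libraries. In both combination and radiation tumours 10 of 14 rose over control, including Adgre1, a macrophage surface receptor gene, by 1.53 ± 0.14 in combination (adjusted p = 4.37e-05) and 1.35 ± 0.14 in radiation tumours (adjusted p = 0.000174). Of all tested genes, 11.9% and 7.39% rose in these comparisons. The part of macrophage number in these values was not tested. Of the 31-base sequences of Mmp12, 6.59% occur in other loci, and the opposite-strand neighbour Mmp1b that overlaps it held at most 1 count per library.

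Mmp12 and Mmp13 had a most-alike gene in common, the zinc finger gene Zik1 (r = 0.92 and 0.93 over 12 libraries). Shcbp1 (0.93) and Stag1 (0.91), a cohesin subunit gene, completed the list for Mmp12, and Gid4 (0.94) and Mars1 (0.94), the methionyl-tRNA synthetase gene, that for Mmp13. With group means removed these 6 values lay between 0.73 and 0.89.

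**Figure D3:**
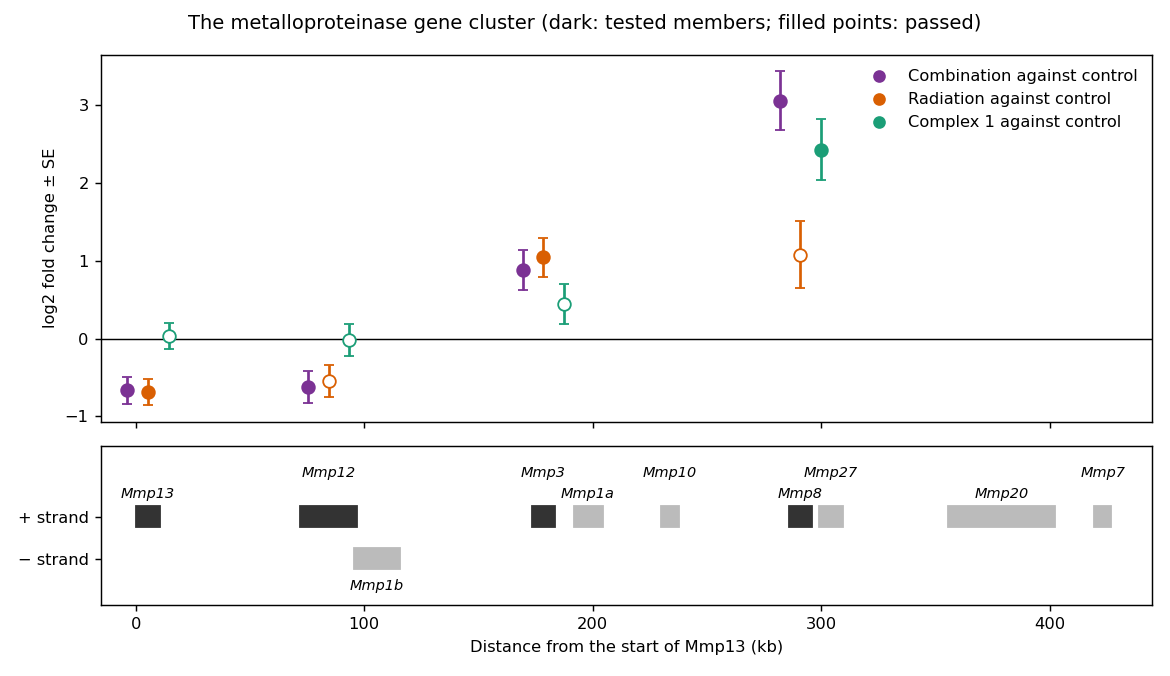
Top, log2 fold change ± SE against control (vertical axis) for the 4 tested genes of the cluster, placed by distance from the start of Mmp13 (kb) with small sideways shifts between comparisons; filled points passed. Bottom, the 10 genes by strand, with tested members dark. Mmp13 and Mmp12 lie below 0 in both comparisons with radiation, while Mmp3 and Mmp8 lie above 0 in all 3.

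Among the broadly expressed stromal enzymes no change passed against control. Mmp2 encodes gelatinase A (ENSMUSG00000031740, chromosome 8, 93553919 to 93580048, + strand, mm39). Mmp2 levels were 6.08, 5.50 and 3.54 FPKM in combination, 3.66, 5.96 and 3.63 in radiation, 2.40, 4.11 and 4.93 in Complex 1, and 3.98, 2.90 and 2.46 in control libraries, with overlap between all groups. Its changes over control were 0.64 ± 0.29 in combination (adjusted p = 0.131), 0.47 ± 0.29 in radiation (0.305) and 0.26 ± 0.29 in Complex 1 tumours (0.772). Mmp14 encodes the membrane-type enzyme MT1-MMP, a collagenase that activates the MMP-2 zymogen (ENSMUSG00000000957, chromosome 14, 54669069 to 54682821, + strand, mm39). It had the highest level of the 8 enzyme genes in every library, with 29.92, 26.64 and 29.88 FPKM in combination, 28.98, 27.34 and 26.41 in radiation, 25.72, 27.63 and 25.44 in Complex 1, and 27.30, 23.72 and 25.02 in control libraries. Mmp14 also varied least of the 10 genes, since its highest library was 1.26 times its lowest. Its changes over control were 0.14 ± 0.071 in combination (adjusted p = 0.193), 0.094 ± 0.071 in radiation (0.423) and 0.023 ± 0.071 in Complex 1 tumours (0.929). Between treatments no difference of either gene passed by edgeR. They were 0.17, 0.38 and 0.22 for Mmp2 and 0.044, 0.11 and 0.071 for Mmp14, in the order combination against radiation, combination against Complex 1, and radiation against Complex 1, with adjusted p from 0.344 to 0.880. The genes most like Mmp14 were Lrp1 (r = 0.91), an endocytic receptor gene, Snord23 (0.90) and Yipf3 (0.88), and those most like Mmp2 were Capg, Ostm1 and Tiam1 (0.87 each). The summed level of 12 fibroblast markers was 132 to 156 FPKM in combination, 125 to 149 in radiation, 121 to 133 in Complex 1, and 103 to 121 in control libraries, with Fap and Fbln1 below 1 FPKM throughout. Of 10 tested fibroblast markers, 3 rose and 1 fell in combination and 2 rose in radiation tumours, each against control. In Complex 1 tumours 0 passed by edgeR, and 3 had an unadjusted p under 0.05. Of all tested genes, 11.9%, 7.39% and 0.717% rose and 10%, 5.85% and 0.0951% fell in these comparisons. The markers' median log2 change was 0.049 in combination, 0.29 in radiation and 0.31 in Complex 1 tumours. The part of fibroblast markers in the levels of the stromal enzymes was not tested.

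The inhibitor genes were by far the most abundant members. Timp2 encodes an inhibitor that also takes part in the activation of MMP-2 by MT1-MMP (ENSMUSG00000017466, chromosome 11, 118191895 to 118246566, - strand, mm39). Timp2 reached 200.62, 208.61 and 205.40 FPKM in combination, 228.47, 223.92 and 200.73 in radiation, 148.86, 153.61 and 166.25 in Complex 1, and 145.99, 157.21 and 165.44 in control libraries. The 6 libraries of irradiated mice lay above the 6 others, and Complex 1 and control libraries overlapped almost fully. Timp2 rose with radiation by 0.45 ± 0.073 (1.37-fold, adjusted p = 0.00255) and with the combination by 0.34 ± 0.073 (1.27-fold, adjusted p = 0.00492), each over control. It also exceeded Complex 1 in combination (0.37 ± 0.073, adjusted p = 0.00777) and in radiation tumours (0.48 ± 0.073, adjusted p = 0.00291). These 4 calls held under every alternative run. Combination differed from radiation by -0.11 ± 0.072 (adjusted p = 0.640). Complex 1 alone gave -0.027 ± 0.073 (adjusted p = 0.919). The genes most like Timp2 were Ephx1 (r = 0.98), an epoxide hydrolase gene, Lhfp (0.98) and Dmpk (0.97). Cep295nl lies on the same strand within the span of Timp2 and held 36 to 61 counts, against 9337 to 16534 for Timp2.

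Timp1, an inhibitor that binds the MMP-9 zymogen as well as active enzymes (ENSMUSG00000001131, chromosome X, 20736405 to 20740974, + strand, mm39), spread widely between libraries. Timp1 came to 364.18, 296.92 and 265.18 FPKM in combination, 224.94, 318.78 and 266.78 in radiation, 503.60, 468.74 and 301.86 in Complex 1, and 587.84, 379.81 and 282.91 in control libraries. Control libraries alone spanned most of the range of all 12. No change passed in the main test. Against control it was -0.48 ± 0.24 in combination (adjusted p = 0.182), -0.65 ± 0.24 in radiation (0.0944) and -0.0022 ± 0.24 in Complex 1 tumours (0.999). Without control replicate 3, the lowest control library, both changes with radiation passed (adjusted p = 0.0494 in combination and 0.0302 in radiation tumours). Without control replicate 1, the highest, they were -0.15 (adjusted p = 0.696) and -0.32 (0.406). Between treatments Timp1 differed by 0.17 ± 0.24 for combination against radiation (adjusted p = 0.851), -0.48 ± 0.24 for combination against Complex 1 (0.237) and -0.65 ± 0.24 for radiation against Complex 1 (0.111), which passed without Complex 1 replicate 3 (0.0379). The ratio of Timp1 to Timp2 was 1.29 to 1.82 in combination, 0.985 to 1.42 in radiation, 1.82 to 3.38 in Complex 1, and 1.71 to 4.03 in control libraries. Radiation libraries lay below control without overlap in this ratio, while combination and control overlapped. The genes most like Timp1 were Cnnm4 (r = 0.97; 0.97 with group means removed), Car6 (0.96; 0.94), a carbonic anhydrase gene, and Niban1 (0.96; 0.92). Timp1 lies within Syn1, a neuronal gene on the opposite strand that held 20 to 43 counts per library.

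**Figure D4:**
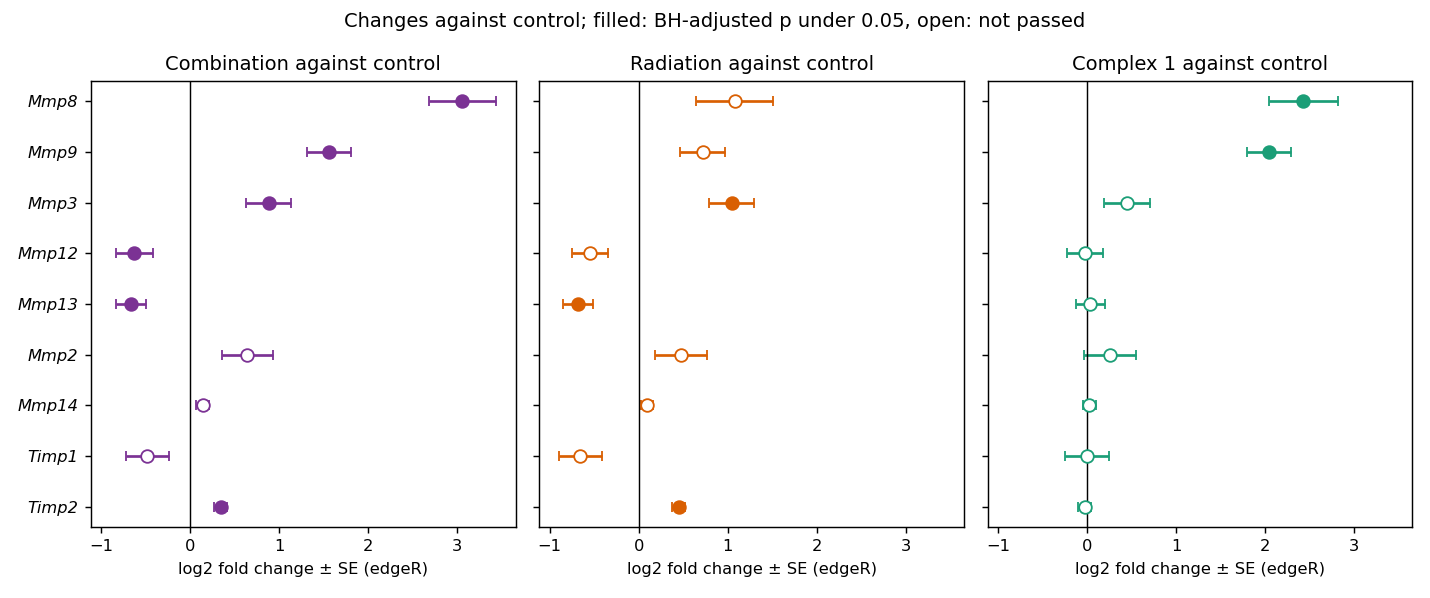
Log2 fold change ± SE (edgeR, horizontal axes) of the 9 tested members in combination, radiation and Complex 1 tumours, each against control; filled points have an adjusted p under 0.05. Mmp8 and Mmp9 are filled for combination and Complex 1, and Mmp3, Mmp13 and Timp2 for combination and radiation.

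Counted over the 9 tested members, 4 rose and 2 fell in combination against control, where 11.9% and 10% of all tested genes rose and fell. The members' median log2 change was 0.34, against -0.0068 over all tested genes. In radiation against control, 2 rose and 1 fell (all genes, 7.39% and 5.85%), with medians of 0.45 and -0.0056. In Complex 1 against control, 2 rose and 0 fell by edgeR (all genes, 0.717% and 0.0951%), with medians of 0.037 and 0.0077. These 3 comparisons share the control libraries. Between treatments, combination against radiation had 1 member higher and 0 lower (0.615% and 0.0366% of all genes). That member was Mmp8, which entered the test only through groups with the compound, so this count rests on its entry. Combination against Complex 1 had 1 higher and 1 lower (4.73% and 5.25%), and radiation against Complex 1 had 1 higher and 3 lower (3.75% and 5.49%). Mmp8 is also among the members that rose in combination and in Complex 1 against control. It is among those lower in radiation than in Complex 1 tumours, so these counts are partly fixed as well. The interaction passed in 0% of all genes and in 0 members by edgeR or DESeq2, with 1 member (Mmp9) and 601 genes at an unadjusted p under 0.05.

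Of 15 further metalloproteinase genes, 10 lay below 1 FPKM in every library and 4 were tested. In combination against control, Mmp25, a membrane-anchored enzyme of leukocytes, rose by 0.94 ± 0.25 (adjusted p = 0.0176) and Mmp11, stromelysin 3, fell by 0.55 ± 0.12 (adjusted p = 0.00607). Mmp25 was at most 0.86 FPKM in control libraries and entered the test only through treated groups, so its change is a description. Mmp11 stood at 7.03 ± 0.771 FPKM in combination and 9.96 ± 1.55 FPKM in control libraries (SD, n = 3 each). Among 6 further inhibitor genes, 2 were tested, of which 2 rose in combination and 1 in radiation tumours against control, beside 11.9% and 7.39% of all tested genes. Reck, a membrane-anchored inhibitor, had 4.26 ± 0.160 FPKM in combination, 4.02 ± 0.295 in radiation, 2.59 ± 0.459 in Complex 1 and 2.80 ± 0.358 in control libraries (SD, n = 3 each). It rose with radiation by 0.49 ± 0.14 (adjusted p = 0.0319) and with the combination by 0.56 ± 0.14 (adjusted p = 0.0109), each over control. Timp3, an inhibitor held in the matrix, rose with the combination by 0.74 ± 0.22 (adjusted p = 0.0265), and radiation gave 0.66 ± 0.21 (adjusted p = 0.0587).

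Plasmin activates several metalloproteinase zymogens. Of 10 tested plasminogen activation genes, 4 rose and 1 fell in combination and 3 rose and 1 fell in radiation tumours, each against control. In Complex 1 tumours against control, 0 passed by edgeR, and 1 had an unadjusted p under 0.05. Of all tested genes, 11.9% rose and 10% fell in combination, and 7.39% rose and 5.85% fell in radiation tumours. With Complex 1, 0.717% rose and 0.0951% fell. Plau, the urokinase gene, was at 45.8 ± 4.64 FPKM in combination, 54.2 ± 18.2 in radiation and 30.6 ± 2.49 in control libraries (SD, n = 3 each), and rose by 0.53 ± 0.18 (adjusted p = 0.0452) in combination and 0.80 ± 0.18 (adjusted p = 0.0118) in radiation tumours. Serpine2, which encodes the inhibitor protease nexin 1, rose by 2.24 ± 0.33 in combination (adjusted p = 0.000596) and 2.25 ± 0.33 in radiation tumours (adjusted p = 0.00161). Its levels were 0.923 ± 0.387 FPKM in combination, 0.913 ± 0.177 in radiation and 0.190 ± 0.0781 in control libraries (SD, n = 3 each). Serpine2 was at most 0.28 FPKM in control and 0.35 FPKM in Complex 1 libraries, so it entered the test only through irradiated groups. Its changes are thus a description, and the counts for plasminogen activation genes are partly fixed by its entry. Of 10 tested ADAM and ADAMTS genes, 3 rose in combination and 2 in radiation tumours, beside 11.9% and 7.39% of all tested genes. Adam8, a membrane proteinase gene of leukocytes, rose by 1.06 ± 0.13 in combination (adjusted p = 0.000237) and 0.51 ± 0.13 in radiation tumours (adjusted p = 0.0248).

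Of 16 genes for known inducers and transcription factors of metalloproteinases, 5 rose in combination, 1 in radiation and 3 in Complex 1 tumours, each against control, and none fell. Of all tested genes, 11.9%, 7.39% and 0.717% rose in these comparisons. The list gene that rose in radiation tumours was Il1a, which encodes interleukin 1 alpha (1.32 ± 0.37, adjusted p = 0.0344). Il1a was at most 0.66 FPKM in control libraries and entered the test only through treated groups, so its change is taken as a description. Il1b, the interleukin 1 beta gene, was at 57.0 ± 15.7 FPKM in combination, 8.80 ± 3.17 in radiation, 30.7 ± 5.55 in Complex 1 and 6.87 ± 4.74 in control libraries (SD, n = 3 each). It rose by 3.01 ± 0.39 with the combination (adjusted p = 0.000256) and 2.13 ± 0.38 with Complex 1 (adjusted p = 0.0219) over control. Osm was at 6.72 ± 1.99 FPKM in combination, 1.64 ± 0.353 in radiation, 2.93 ± 0.788 in Complex 1 and 1.17 ± 0.0896 in control libraries (SD, n = 3 each). Of the AP-1 subunit genes in the list (Fos, Fosl1, Fosl2, Jun and Junb), Fos rose in combination against control, by 0.76 ± 0.17 (adjusted p = 0.0079). Of 16 tested matrix substrate genes, 1 rose and 2 fell in combination against control: Dcn, the decorin gene, by 1.05 ± 0.13 (adjusted p = 0.000204), Spp1, osteopontin, by -0.75 ± 0.19 (adjusted p = 0.0117) and Lamb1, a laminin chain, by -0.39 ± 0.12 (adjusted p = 0.0292). In radiation and in Complex 1 tumours 0 of the 16 passed by edgeR, and 4 had an unadjusted p under 0.05 in each. Of all tested genes, 7.39% rose and 5.85% fell with radiation, and 0.717% rose and 0.0951% fell with Complex 1.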

How the data were processed

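Total RNA of 12 CT26 tumour samples was sequenced after preparation with a NEB Next Ultra kit, per the labels' protocols. STAR 2.5.3a, HTSeq 2.0.1 and DESeq2 (version not given in the sources used here) were used with build mm39, per the submitters' processing notes; the strand setting and filters are not given there, so overlapping genes on opposite strands cannot be told apart. The authors deposited a raw count and an FPKM value per gene and library in 1 table.

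The members and gene lists were chosen with earlier results of these data known. The rule names the 10 members, the 3 genes most correlated with each of the 9 tested members (1 of them is not reported here) and up to 4 passing genes per list, of which examples are given. The design assumed FPKM, and since counts were present, edgeR 4.0.16 (R 4.3.3; TMM scaling, quasi-likelihood, 1 mean per group over 12 libraries) was used on 13668 genes with at least 1 FPKM in 3 libraries, adjusted by Benjamini-Hochberg in each of 7 comparisons. The code was tested on simulated data. Alternatives were DESeq2 1.42.0, limma 3.58.1 on log2(FPKM + 1) and log2(FPKM + 0.1), other scalings, no filter, only the groups compared, a replicate block and each library left out. Differences between replicates exceeded counting noise (chi-square per degree of freedom at least 5.36). Totals per library set the precision of low genes. Shared 31-base sequences were counted in GENCODE M21 transcripts.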

Additional observations from a re-analysis of the deposited data

Results flagged for a closer look

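Mmp9 was the 1 member whose response to radiation ran in opposite directions with and without the compound. The log2 ratio of mean FPKM was -0.4613 for combination against Complex 1 and 0.7493 for radiation against control. Each combination library lay below the Complex 1 mean of 5.21 FPKM, and each radiation library lay above the control mean of 1.24 FPKM. The test of the difference itself, edgeR's interaction, gave -1.20 ± 0.34 with an unadjusted p of 0.00354 and did not pass after Benjamini-Hochberg adjustment over all genes (0.997).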

How the results depend on the processing

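Of 40 member changes recomputed, 18 passed in the main test, and 8 of those passed under every alternative: Mmp8 and Mmp9 in combination against control, Mmp9 in Complex 1 against control and in radiation against Complex 1, and the 4 rises of Timp2. That of Mmp8 is a description, because the gene entered the test through the groups where it is high. None of the 18 turned its direction. Of 605 recomputed values, 516 kept direction and side of the threshold, 46 lost the call, 23 gained it and 20 turned sign. The sign turned only in Complex 1 against control, for changes that did not pass. With library totals alone these were Mmp12 (0.0071), Timp1 (0.028) and Timp2 (0.0012). With limma on log2(FPKM + 1) they were Mmp12 (0.014), Timp1 (0.058) and Timp2 (0.00056), and with log2(FPKM + 0.1) they were Mmp12 (0.016), Timp1 (0.058) and Timp2 (0.00057). With 1 library left out, the ranges were -0.10 to 0.11 for Mmp12, -0.094 to 0.13 for Mmp13, -0.020 to 0.081 for Mmp14, -0.22 to 0.33 for Timp1 and -0.079 to 0.013 for Timp2.

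Without the filter on low values (31727 genes), members passing numbered 7 in radiation against control, 2 in combination against radiation, 7 in combination against Complex 1, 8 in radiation against Complex 1 and 1 in the interaction. There edgeR's prior degrees of freedom were infinite, so each gene's own spread had no weight. Mmp9 then passed the interaction (-1.19, adjusted p = 0.000262), and otherwise its adjusted p ran from 0.342 to 1.0. With FPKM of at least 0.5, chosen after seeing the data, the count in radiation against Complex 1 was 5. DESeq2 passed 2 members in combination against radiation, and limma with the pseudocount 0.1 passed 1 in combination against Complex 1. With 1 library left out, the counts ran from 1 to 2 in Complex 1 against control, 0 to 1 in combination against radiation, 1 to 3 in combination against Complex 1 and 2 to 5 in radiation against Complex 1. The cause of these changes was not tested further.

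With the replicate number as a replicate block, 2 members passed in Complex 1, 4 in radiation and 5 in combination tumours, each against control. Mmp9 gained the call in radiation (0.74, adjusted p = 0.0292), and Mmp12 lost it in combination (-0.64, adjusted p = 0.0522). With this block Timp1 in Complex 1 against control turned to 0.014. Same-numbered libraries deviated together (r over 0.1) in 6 of 18 pairs, so the numbers are not taken to pair samples. Depth limits Mmp8 and Mmp10, which had 5 to 89 and 7 to 51 counts.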
